A study of Mus musculus with 12 samples.

Results

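The 7 genes described here, Irgm1, Irgm2, Igtp, Iigp1, Ifi47, Tgtp1 and Tgtp2, belong to the immunity-related GTPases (IRG proteins) of the mouse. They were taken by symbol from a gene table of 21573 genes, and all 7 were found. IRG proteins are GTP-binding proteins that interferons induce and that act inside the cell against parasites and bacteria living in vacuoles. The regulatory members (Irgm1, Irgm2 and Igtp, also called Irgm3) sit on the cell's own membranes and hold the effectors inactive there. The effectors (Iigp1, Ifi47, Tgtp1 and Tgtp2) load onto the membrane of a pathogen's vacuole and help to break it open. Plasmacytoid dendritic cells (pDCs) are the immune cells best known for releasing large amounts of type I interferon when unmethylated CpG DNA reaches their receptor TLR9.

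RNA was sequenced from pDCs of BALB/c mouse bone marrow, from mice 56 to 63 days old, in 12 libraries. Cells were kept for 24 h with 0.5 µM of a CpG-A, a CpG-B or a CpG-C oligodeoxynucleotide, or without one as control, with 3 libraries in each of the 4 groups. These classes differ in their backbone and sequence: CpG-A has a palindromic phosphodiester centre and phosphorothioate poly-G ends, CpG-B is linear and phosphorothioate throughout, and CpG-C joins a phosphorothioate backbone with a palindromic part. RNA was extracted from sorted cells whose gate is not given. Whether the 3 libraries of a group stem from different mice is not given either, so p-values measure only the spread between these samples. Levels are FPKM (fragments per kilobase of transcript, scaled to library size), and differences are between group means of log2(FPKM + 1), a scale that understates the change of low genes. A gene was called at an adjusted p below 0.05 in limma's moderated test across 11641 genes.

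The labelled cell type was checked against its markers. All 12 pDC markers were detected, and their summed level was 19045 to 22879 FPKM in CpG-A, 5140 to 17424 FPKM in CpG-B, 17487 to 22493 FPKM in CpG-C and 9348 to 16015 FPKM in control libraries. In CpG-B cells 6 of these 12 markers fell, where 289 of all 11641 genes tested were called lower. None of the 12 was called in CpG-A or CpG-C cells. The summed level of 8 natural killer cell markers was 628 to 663 FPKM in CpG-A, 1139 to 5554 FPKM in CpG-B, 378 to 620 FPKM in CpG-C and 647 to 1145 FPKM in control libraries. Of these 8 markers, 1 rose with CpG-A, 3 with CpG-B and 1 with CpG-C, against 1.05%, 3.26% and 1.34% of all genes tested. With CpG-C 1 of them fell. Markers of conventional dendritic cells (7 genes, 1, 2 and 1 of them called lower with CpG-A, CpG-B and CpG-C) summed to 135 to 353 FPKM in CpG-A, 67.1 to 114 FPKM in CpG-B, 28.2 to 315 FPKM in CpG-C and 386 to 665 FPKM in control libraries. Over all 11641 genes tested, 49, 289 and 61 were called lower in the same order of classes. The 7 T cell markers summed to 202 to 258 FPKM in CpG-A, 277 to 488 FPKM in CpG-B, 262 to 320.2 FPKM in CpG-C and 77.5 to 189 FPKM in control libraries, and 1 of them rose, with CpG-B. These sums were higher in every CpG library than in any control library. The defining T cell marker Cd3e was at 0 in every library but CpG-B replicate 3 (0.34 FPKM), so other markers of the list carried the sums. Of the 7 monocyte and macrophage markers, Ly6c2, which pDCs are also known to express, made up nearly all of the summed level of 10545 to 18816 FPKM in CpG-A, 1342 to 5402 FPKM in CpG-B, 10933 to 16112 FPKM in CpG-C and 4762 to 10410.3 FPKM in control libraries. Of the other 6, Cd14 did not pass 30.5 FPKM and the defining marker Csf1r did not pass 0.26 FPKM in any library. The 6 B cell and plasma cell markers found summed to 627 to 775 FPKM in CpG-A and 438 to 679 FPKM in CpG-B libraries. In CpG-C libraries their sum was 382 to 824 FPKM, and in control libraries 495 to 755 FPKM. The 3 erythroid markers found reached 191 FPKM in a CpG-A library and at most 36.3 FPKM in the other groups. The 5 neutrophil markers found did not pass a sum of 19.4 FPKM. The part of these shifts in the results below was not tested, and in bulk RNA fewer cells of a type and less RNA per cell cannot be told apart.

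Interferons act on genes through short DNA elements in their promoters: the interferon-stimulated response element (ISRE), through which type I interferon and IRF factors act, and the gamma-activated site (GAS), through which interferon-gamma acts. RefSeq promoter windows (GRCm38.p6, 250 bases before to 50 after each start) were at hand for 6 of the 7 members, without Iigp1. They were searched on both strands for the ISRE core GAAANNGAAA and for the GAS letters TTCNNNGAA. Below are stretches of 48 bases, read 5′ to 3′ on the gene's strand, with matches in capitals. They are shown because the same arrangement recurs in members that lie apart on the chromosome.
Irgm1 (chr11:48871427-48871474, minus strand): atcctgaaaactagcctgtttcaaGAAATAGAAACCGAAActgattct
Irgm2 (chr11:58214883-58214930, plus strand): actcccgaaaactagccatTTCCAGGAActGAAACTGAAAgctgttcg
Igtp (chr11:58199492-58199539, plus strand): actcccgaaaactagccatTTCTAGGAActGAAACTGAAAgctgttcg
Tgtp1 (chr11:48992306-48992353, minus strand): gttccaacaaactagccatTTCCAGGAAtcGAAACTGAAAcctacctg
Tgtp2 (chr11:49064265-49064312, minus strand): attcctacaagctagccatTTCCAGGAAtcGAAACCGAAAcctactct
Irgm2, Igtp, Tgtp1 and Tgtp2 each held a GAS match followed after a gap of 2 bases by an ISRE core. Irgm1 held 2 overlapping ISRE cores and no GAS match, and the Ifi47 window held neither set of letters. All matches lay between positions -88 and -15 from the annotated start. Among all 32851 promoter windows of the same length, 3.44% held the ISRE core, 8.30% the GAS letters and 0.454% both. Over the aligned bases the windows of Igtp and Irgm2 were 92.1% identical and those of Tgtp1 and Tgtp2 80.5%, against 56.9% to 68.2% for the other pairs. A match describes letters only and does not show that a factor binds there.

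Expression of the family was higher with every CpG class. With CpG-A, 5 of the 7 members rose, against 1.05% of all genes tested called higher. With CpG-B all 7 rose, against 3.26% of all genes, and with CpG-C 5 rose, against 1.34%. No member fell in any of the 3 comparisons, which share the control libraries. The CpG and control libraries did not overlap for any of the 7 members with any class, a separation upwards that 5.78% of all genes showed with CpG-A, 10.1% with CpG-B and 6.64% with CpG-C. The median difference of the members was 3.68 with CpG-A, 3.96 with CpG-B and 3.68 with CpG-C on the log2 scale, where the median of all genes tested was -0.27, -0.25 and -0.22 in the same order. Libraries numbered 1 were the least like the others of their group in each of the 4 groups. Without these 4 libraries 5 members were called with each class. The fit behind all these counts left the replicate number out. With the number as a block, Tgtp2 was also called with CpG-A (adjusted p = 0.0181) and CpG-C (0.0291). In that fit 191 and 208 of all 11641 genes tested were called higher with CpG-A and CpG-C.

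**Figure D1:**
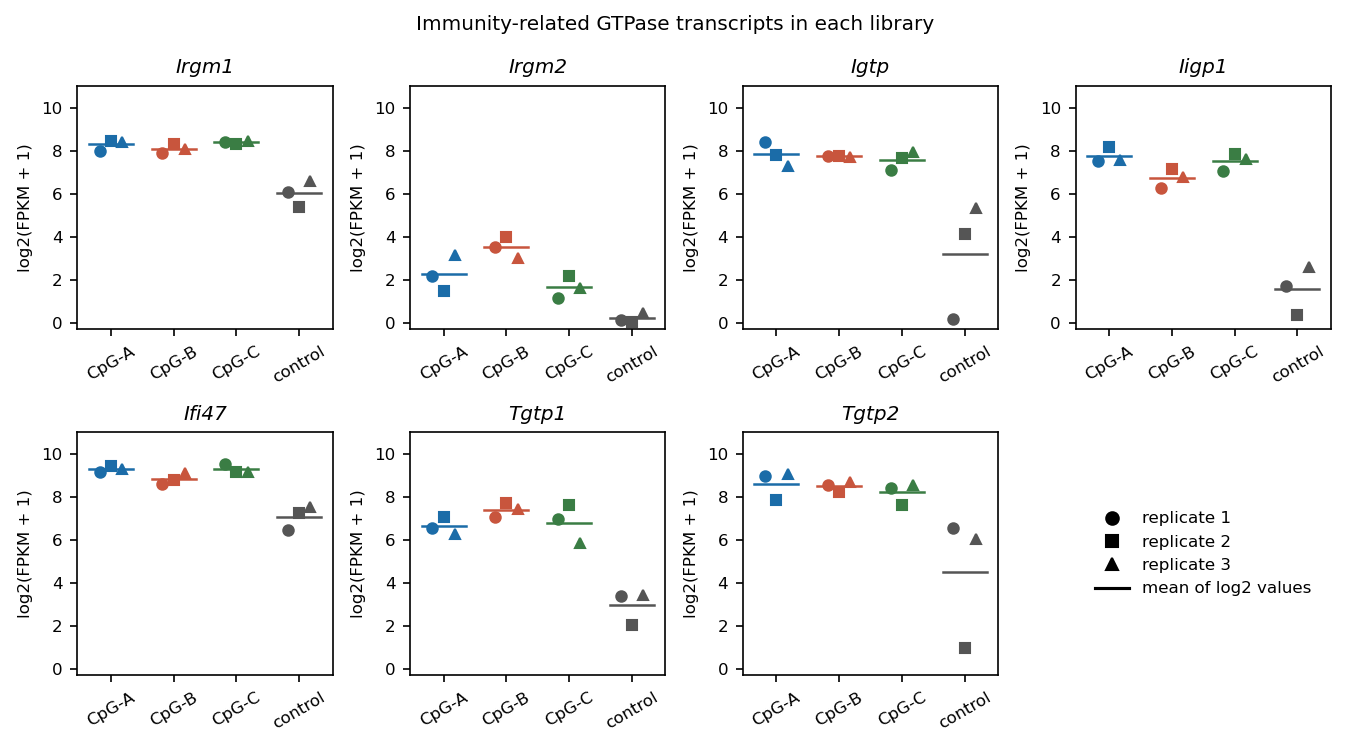
Levels of the 7 members as log2(FPKM + 1) in each library, by group, with the replicate number as the symbol and the mean of the log2 values as a line. Every CpG library lies above every control library for each gene, and the control libraries of Igtp and Tgtp2 spread widely, with Igtp at 0.11 FPKM in control replicate 1 and Tgtp2 at 0.97 FPKM in control replicate 2.

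Summed over the 7 members, the level was 1931, 1928 and 1915 FPKM in the CpG-A libraries. It was 1425, 1635 and 1733 FPKM in the CpG-B libraries, 1810, 1719 and 1792 FPKM in the CpG-C libraries and 258, 211 and 397.5 FPKM in the control libraries. The 3 CpG-A sums were nearly level and above all others. Ifi47 was the highest member in 11 of the 12 libraries, the exception being control replicate 1, where Tgtp2 led. Irgm2 was the lowest member in all 12.

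Irgm1 is the regulator on the Golgi and on lysosomes, and mice without it are highly susceptible to intracellular pathogens. Its row spans chr11:48865249-48871360 on the minus strand (mm10). Irgm1 stood at 254.5, 351 and 335 FPKM in CpG-A libraries, 236, 316 and 268.5 FPKM in CpG-B libraries, 335, 315 and 346 FPKM in CpG-C libraries, and 65.7, 40.6 and 94.2 FPKM in control libraries. The lowest CpG library, CpG-B replicate 1, was well above the highest control. Irgm1 rose by 2.28 with CpG-A (SE 0.358, adjusted p = 0.00288), by 2.09 with CpG-B (adjusted p = 0.00263) and by 2.37 with CpG-C (adjusted p = 0.00187) on the log2 scale. It kept the narrowest range of group means among the CpG classes of all members, with the highest mean 1.21 times the lowest. Its CpG-A call was lost with only the 6 libraries compared (adjusted p = 0.104).

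Irgm2, a regulator of the Golgi and of endosomes, was the lowest member. Its row spans chr11:58214977-58222783 on the plus strand, inside the span of the Igtp row. Irgm2 was at 3.52, 1.75 and 7.87 FPKM in CpG-A libraries, 10.5, 15.0 and 7.02 FPKM in CpG-B libraries, 1.23, 3.48 and 2.06 FPKM in CpG-C libraries, and 0.08, 0.02 and 0.34 FPKM in control libraries. Control replicate 2 was at a level worth an estimated 1.69 fragments, and all CpG libraries lay above all controls. Irgm2 rose by 3.32 with CpG-B (SE 0.758, adjusted p = 0.0166). The differences with CpG-A (2.07, adjusted p = 0.251) and with CpG-C (1.46, adjusted p = 0.448) did not pass the test. Leaving out 1 library, the CpG-B call was lost in 3 cases: CpG-B replicate 1 (adjusted p = 0.0542), control replicate 2 (0.0693) and CpG-B replicate 2 (0.0659). Leaving out the 4 libraries numbered 1 together also ended it (0.0671). At this low level the scale matters: with 0.01 in place of 1 added to FPKM the CpG-B difference was 6.72.

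Igtp (Irgm3), found on the endoplasmic reticulum and lipid droplets, is the third regulator. Its row spans chr11:58199556-58222783 on the plus strand. Igtp was at 340, 218 and 155 FPKM in CpG-A libraries, 216, 210.3 and 205 FPKM in CpG-B libraries, 134, 203 and 242 FPKM in CpG-C libraries, and 0.11, 16.1 and 39.0 FPKM in control libraries. The CpG-B libraries were almost level, with the highest 1.05 times the lowest, while the highest control was 355 times the lowest. Igtp rose by 4.64 with CpG-A (SE 0.905, adjusted p = 0.0138), by 4.54 with CpG-B (adjusted p = 0.00692) and by 4.37 with CpG-C (adjusted p = 0.0203). Without control replicate 1 these differences were 3.12, 3.02 and 2.85 and still called. Calls were lost without CpG-A replicate 1 for CpG-A (adjusted p = 0.0721) and without any 1 of the CpG-C libraries for CpG-C (0.0562, 0.0625 and 0.0904). With all 3 classes they were lost with 0.01 in place of 1 added to FPKM (0.117, 0.0566 and 0.121), without the filter on low values (0.157, 0.0722 and 0.169) and with only the 6 libraries compared (0.247, 0.0530 and 0.224). For CpG-A and CpG-C they were also lost with 0.1 added (0.0718 and 0.0830) and without the mean-variance trend (0.0527 and 0.0668).

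Iigp1 (Irga6), the effector studied most closely at the vacuole of Toxoplasma, had the largest differences of log2(FPKM + 1) among the members with all 3 classes. For CpG-B this order turned with 0.01 in place of 1 added to FPKM (6.14 for Iigp1, 6.72 for Irgm2). Its row spans chr18:60373536-60392634 on the plus strand, apart from the other 6 members on chromosome 11. Iigp1 was at 181, 289 and 188 FPKM in CpG-A libraries, 75.3, 142 and 106.5 FPKM in CpG-B libraries, 132.5, 228 and 195 FPKM in CpG-C libraries, and 2.21, 0.28 and 5.02 FPKM in control libraries. Even the lowest CpG library was many times the highest control, and every CpG-A library was above every CpG-B library. Iigp1 rose by 6.21 with CpG-A (SE 0.549, adjusted p = 2.61e-05), by 5.18 with CpG-B (adjusted p = 4.77e-05) and by 5.96 with CpG-C (adjusted p = 3.18e-05). Its mean FPKM was 87.7 times the control mean in CpG-A cells, 43.1 times in CpG-B cells and 74.0 times in CpG-C cells, where Irgm2 reached 29.9, 73.9 and 15.4 times in the same order. These calls held under every alternative tried.

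Ifi47 (Irgd) is an effector that joins vacuoles after the first ones to load. Its row spans chr11:49076587-49096987 on the plus strand. Ifi47 was at 564, 705 and 622 FPKM in CpG-A libraries, 383, 448 and 551 FPKM in CpG-B libraries, 738, 577 and 569 FPKM in CpG-C libraries, and 87.3, 149.7 and 184 FPKM in control libraries. It was the member with the highest mean in every group, and its CpG-B libraries lay below all CpG-A and all CpG-C libraries. Ifi47 rose by 2.22 with CpG-A (SE 0.330, adjusted p = 0.00181), by 1.76 with CpG-B (adjusted p = 0.00467) and by 2.21 with CpG-C (adjusted p = 0.00173). The CpG-B call was lost without the mean-variance trend in the test (adjusted p = 0.0566), and the CpG-A call with only the 6 libraries compared (0.0816).

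Tgtp1 and Tgtp2 encode the near-identical effector Irgb6, an early arrival at the vacuole. The Tgtp1 row spans chr11:48985329-49019951 and the Tgtp2 row chr11:48985329-49064212, both on the minus strand. Tgtp1 was at 93.2, 133 and 76.6 FPKM in CpG-A libraries, 131, 207 and 174 FPKM in CpG-B libraries, 125, 196 and 56.2 FPKM in CpG-C libraries, and 9.42, 3.19 and 9.75 FPKM in control libraries. CpG-C replicate 3 was the lowest CpG library and lay above all controls. Tgtp1 rose by 3.68 with CpG-A (SE 0.539, adjusted p = 0.00158), by 4.44 with CpG-B (adjusted p = 0.000176) and by 3.85 with CpG-C (adjusted p = 0.000953). Its calls with CpG-A (adjusted p = 0.0776) and CpG-C (0.0532) were lost with only the 6 libraries compared.

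Tgtp2 was at 495, 229.6 and 529 FPKM in CpG-A libraries, 373, 297 and 421 FPKM in CpG-B libraries, 344, 197.6 and 381 FPKM in CpG-C libraries, and 93.2, 0.97 and 65.6 FPKM in control libraries. Replicate 2 was the lowest library of each group, and the groups with CpG did not overlap the control. Tgtp2 rose by 3.96 with CpG-B (SE 1.01, adjusted p = 0.0315). Its differences with CpG-A (4.09, adjusted p = 0.0618) and CpG-C (3.68, adjusted p = 0.0848) did not pass the test. With the replicate number as a block the CpG-A and CpG-C differences were called (adjusted p = 0.0181 and 0.0291). The CpG-B call was lost without any 1 of its 3 libraries (adjusted p = 0.0959, 0.0798 and 0.0946). Without control replicate 2 the differences were 2.31 with CpG-A (adjusted p = 0.0222), 2.19 with CpG-B (0.0164) and 1.91 with CpG-C (0.0667).

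**Figure D2:**
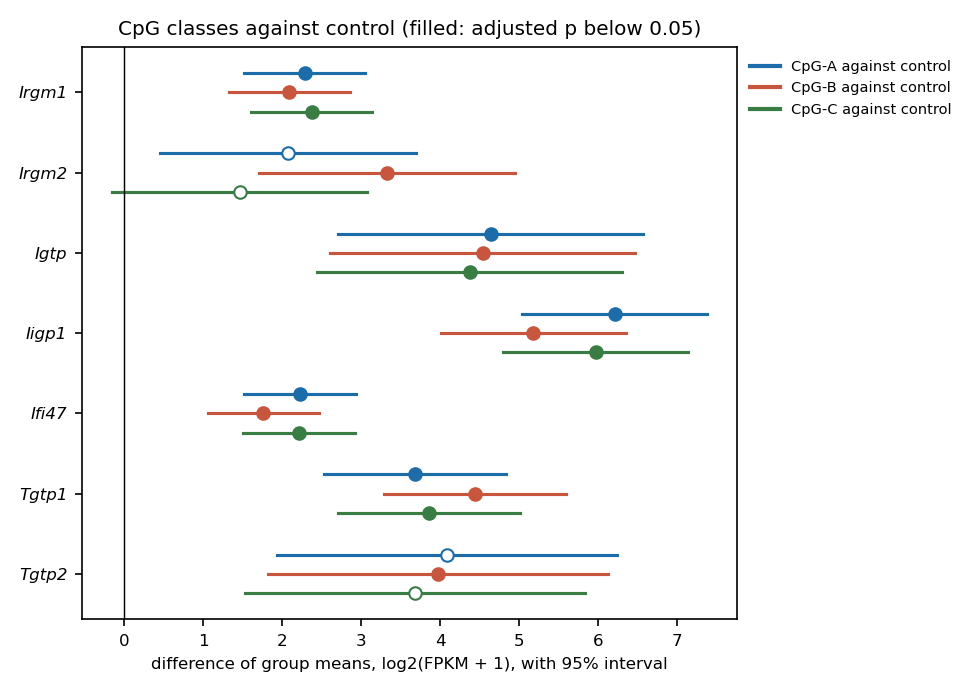
Difference of group means on the log2(FPKM + 1) scale for each member, CpG-A, CpG-B and CpG-C against control, with 95% intervals; filled points were called. Iigp1 lies farthest to the right with all classes (6.21, 5.18 and 5.96), and the open points are Irgm2 and Tgtp2 with CpG-A and CpG-C.

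Some members share sequence or position, so their values are not fully separate measurements. The Tgtp2 row spans the whole Tgtp1 row and that of another IRG gene, 9930111J21Rik2. GENCODE M21 places Tgtp1 at chr11:48985327-48994172 and Tgtp2 at chr11:49057194-49064206, so both rows reach beyond the annotated genes. The Tgtp1 promoter stretch above therefore lies inside its row. In GENCODE, 73.1% of the 100-base windows of the Tgtp1 transcripts and 76.8% of those of Tgtp2 occur in another gene's transcripts. Nearly all of this sharing is between the pair: 70.3% of the Tgtp1 windows occur in Tgtp2. Tgtp1 made up between 9.2% and 76.7% of the pair's summed FPKM. Its share was highest in replicate 2 of every group: 36.6% in CpG-A, 41.1% in CpG-B, 49.8% in CpG-C and 76.7% in control. Summed into 1 row before the test, the pair rose by 3.88 with CpG-A (SE 0.781, adjusted p = 0.0180), by 3.95 with CpG-B (adjusted p = 0.00645) and by 3.65 with CpG-C (adjusted p = 0.0242). The Igtp row likewise spans Irgm2 and ends at the same base, and 5.16% of the GENCODE windows of Igtp are shared with Irgm2. Transcripts named by the sequencing provider make up 4 of 5 in the Igtp row, 5 of 6 for Tgtp1 and 3 of 4 for Tgtp2. The window counts do not include these transcripts. How reads were split between Igtp and Irgm2 was therefore not tested. Igtp made up 93.4% to 99.9% of that pair's sum in all libraries but control replicate 1, where its share was 57.9%. For Ifi47 0.561% of windows were shared with another gene, and for Irgm1 and Iigp1 none was. The build mm10 is of C57BL/6J mice while the cells were BALB/c, and the part of strain differences in the split between copies was not tested.

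**Figure D3:**
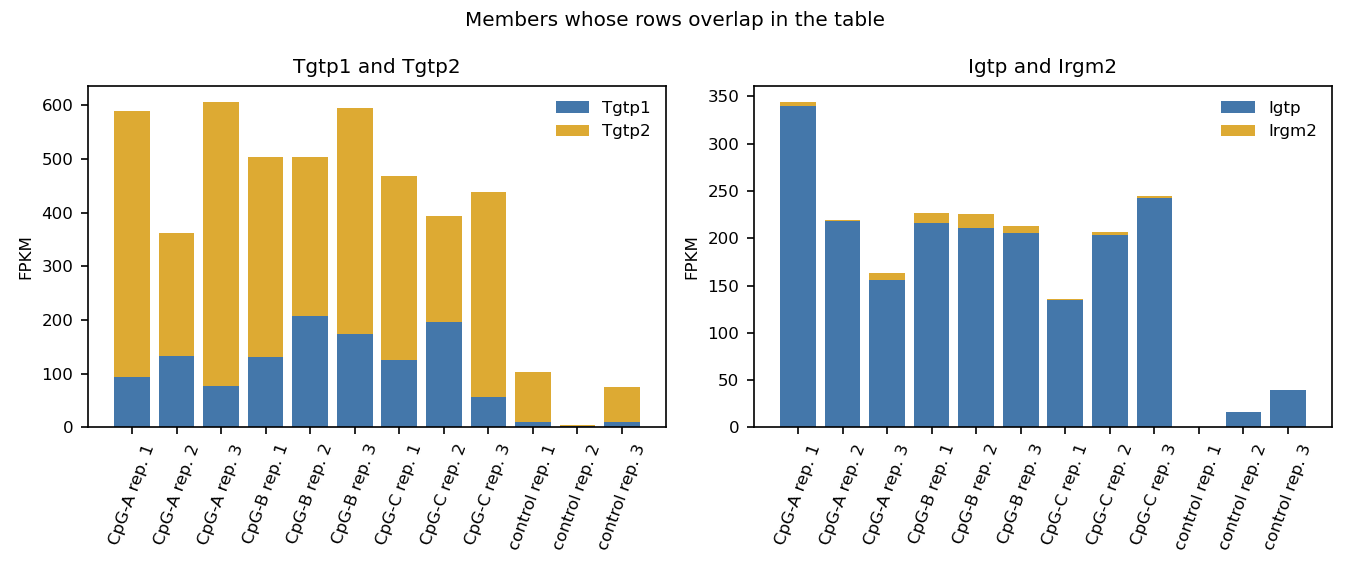
Levels in FPKM of Tgtp1 and Tgtp2, and of Igtp and Irgm2, stacked for each library. The share of Tgtp1 in its pair's sum is highest in replicate 2 of every group, while Igtp makes up nearly all of its pair's sum outside control replicate 1.

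The 3 classes were also set against each other at the same dose and time, in 21 comparisons of a member between classes. None was called after adjustment, where 2.43% of all genes were called between CpG-A and CpG-B, 0.00% between CpG-A and CpG-C and 1.35% between CpG-B and CpG-C. Before adjustment limma's p lay below 0.05 in 1 of the 21, against 14.1%, 4.01% and 11.8% of all genes in these 3 comparisons. This was Irgm2 between CpG-B and CpG-C, 1.86 higher in CpG-B than in CpG-C cells on the log2 scale (95% interval 0.25 to 3.48, adjusted p = 0.320). The Irgm2 libraries of CpG-B (7.02 to 15.0 FPKM) all lay above those of CpG-C (1.23 to 3.48 FPKM).

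Between CpG-A and CpG-B the libraries did not overlap for Iigp1 and Ifi47, both higher in CpG-A cells. This is 2 of 7 members, where 9.49% of all genes separated upwards and 10.2% downwards. Iigp1 differed by 1.03 (95% interval -0.14 to 2.2, adjusted p = 0.434) and Ifi47 by 0.46 (95% interval -0.24 to 1.17, adjusted p = 0.597). Ifi47 was also lower in CpG-B than in CpG-C cells without overlap (-0.45, 95% interval -1.16 to 0.25, adjusted p = 0.672), the direction in which 9.18% of all genes separated, against 9.20% in the other direction, that of Irgm2. No member separated between CpG-A and CpG-C, where 2.99% of all genes separated upwards and 4.10% downwards, and the differences ran from -0.18 for Tgtp1 to 0.62 for Irgm2. The 95% intervals reached 0.705 to 2.15 to either side, so these data do not show that the classes act alike: for Igtp a difference of 1.83 lower to 2.03 higher in CpG-A than in CpG-B cells lay within the interval.

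**Figure D4:**
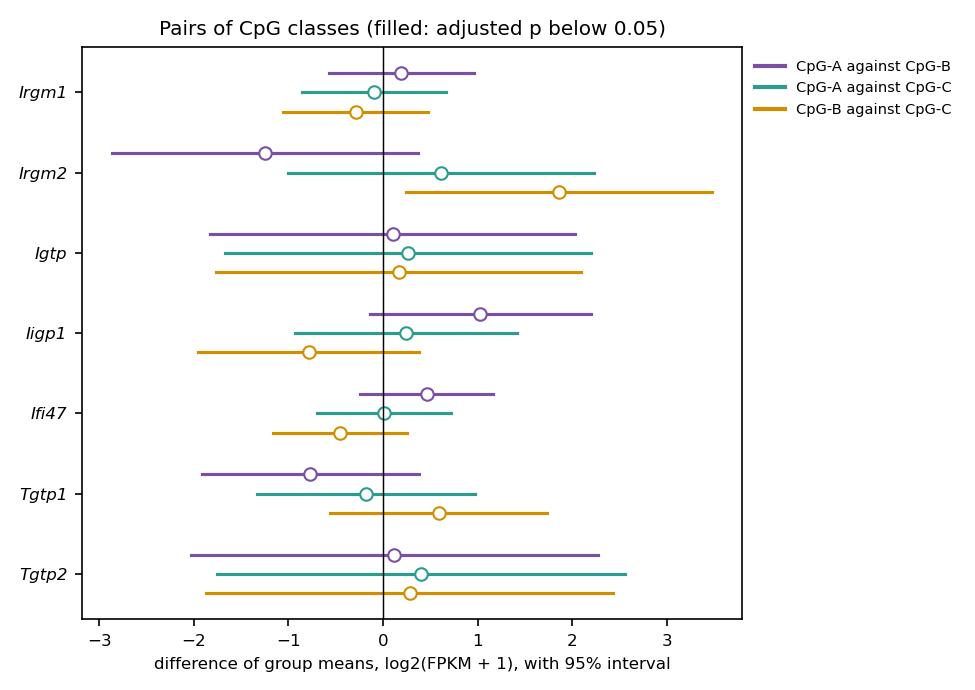
Difference of group means on the log2(FPKM + 1) scale for each member between CpG-A and CpG-B, CpG-A and CpG-C, and CpG-B and CpG-C, with 95% intervals; no point is filled, since none was called. The interval of Irgm2 between CpG-B and CpG-C, 0.25 to 3.48, is the one that leaves out 0.

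The order of the group means differed between members. CpG-A was highest for Igtp, Iigp1, Ifi47 and Tgtp2, CpG-B for Irgm2 and Tgtp1, and CpG-C for Irgm1, with the control lowest for all 7. For Irgm2 the highest CpG mean was 4.80 times the lowest and for Iigp1 2.03 times, while for the other 5 the ratio was 1.21 to 1.69. No 2 neighbours among the CpG classes in any of these orders were told apart after adjustment. The step from the lowest CpG class to control was called for Irgm1, Igtp, Iigp1, Ifi47 and Tgtp1, and not for Irgm2 and Tgtp2, in both of which that class was CpG-C.

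The authors' deposited table gives log2 ratios of the group levels over control for the 7 members of 2.13 to 6.45 with CpG-A, 1.67 to 6.14 with CpG-B and 2.12 to 6.22 with CpG-C. In the authors' deposited table the q-value is 0 for 6 of the 7 members with CpG-A, 7 with CpG-B and 6 with CpG-C, and at most 1.99e-119 for the others. The authors' deposited table thus calls Tgtp2 and Irgm2 with every class, by a test that is not stated.

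A further 10 IRG genes were found under 18 names searched, and all 10 were tested. With each class 3 of the 10 rose and none fell, so that 8, 10 and 8 of the 17 IRG genes in all rose with CpG-A, CpG-B and CpG-C. Over all genes tested 1.05%, 3.26% and 1.34% were called higher in the same order. Gm5431 and Gm4951 rose with all 3 classes. Gm5431 was at 38.7, 37.9 and 41.2 FPKM in CpG-A libraries, 9.5, 17.7 and 18.04 FPKM in CpG-B libraries, 44.7, 45.9 and 31.4 FPKM in CpG-C libraries, and 0.39, 0.05 and 1.29 FPKM in control libraries. Its CpG-B libraries lay below all other CpG libraries, as they did for Ifi47, and it rose by 4.75, 3.38 and 4.78 (adjusted p = 0.000443, 0.00333 and 0.000371). Gm4951, a neighbour of Iigp1, rose by 5.11, 5.24 and 4.29 (adjusted p = 0.000504, 0.000233 and 0.00211) and did not pass 0.05 FPKM in control libraries.

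Gm12250, the gene of Irgb10, rose with CpG-A (3.71, adjusted p = 0.0423) and CpG-B (4.99, adjusted p = 0.00249). Gm12250 was at 16.0, 19.8 and 17.7 FPKM in CpG-A libraries, 35.7, 52.1 and 47.9 FPKM in CpG-B libraries, 1.43, 22.4 and 3.41 FPKM in CpG-C libraries, and 0.02, 0 and 1.9 FPKM in control libraries. CpG-B libraries were the highest and CpG-C libraries overlapped the controls, with a difference of 2.14 that was not called (adjusted p = 0.291). F830016B08Rik rose with CpG-C (3.47, adjusted p = 0.0493), and its differences of 2.82 with CpG-A and 2.76 with CpG-B were not called. Gm4841 and Gm12185 differed by 1.91 to 2.52 and were not called. The tandem relatives 9930111J21Rik1 and 9930111J21Rik2 were at 1.13 to 66.0 FPKM with CpG and 8.71 to 79.4 FPKM in control libraries, with differences of -1.52 to 0.59. Irgq and Irgc1, family members that interferon is not known to induce, were not called with any class. Irgq was at 35.7 FPKM in CpG-A replicate 1 and did not pass 1.96 FPKM in the other 11 libraries, and Irgc1 was listed at 0 in all controls.

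The promoters of 2 of these relatives are set beside the members because they hold both kinds of match, in unlike arrangements.
Gm12185 (chr11:48927240-48927287, minus strand): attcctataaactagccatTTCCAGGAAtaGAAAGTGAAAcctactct
Gm12250 (chr11:58183767-58183814, plus strand): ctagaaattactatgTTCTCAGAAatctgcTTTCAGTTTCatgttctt
Gm12185 has the arrangement of the Tgtp pair, though its differences did not pass the test. The Gm12250 window holds 2 ISRE cores, both read on the opposite strand, at -91 to -82 and -46 to -37, and the stretch above shows the second. The 9930111J21Rik1 window held 1 ISRE core, at positions 26 to 35 from the annotated start, and that gene was not called with any class. The windows of Gm5431, 9930111J21Rik2 and Irgq held no match. Gm4951, Gm4841, F830016B08Rik and Irgc1 are not covered here.

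**Figure D5:**
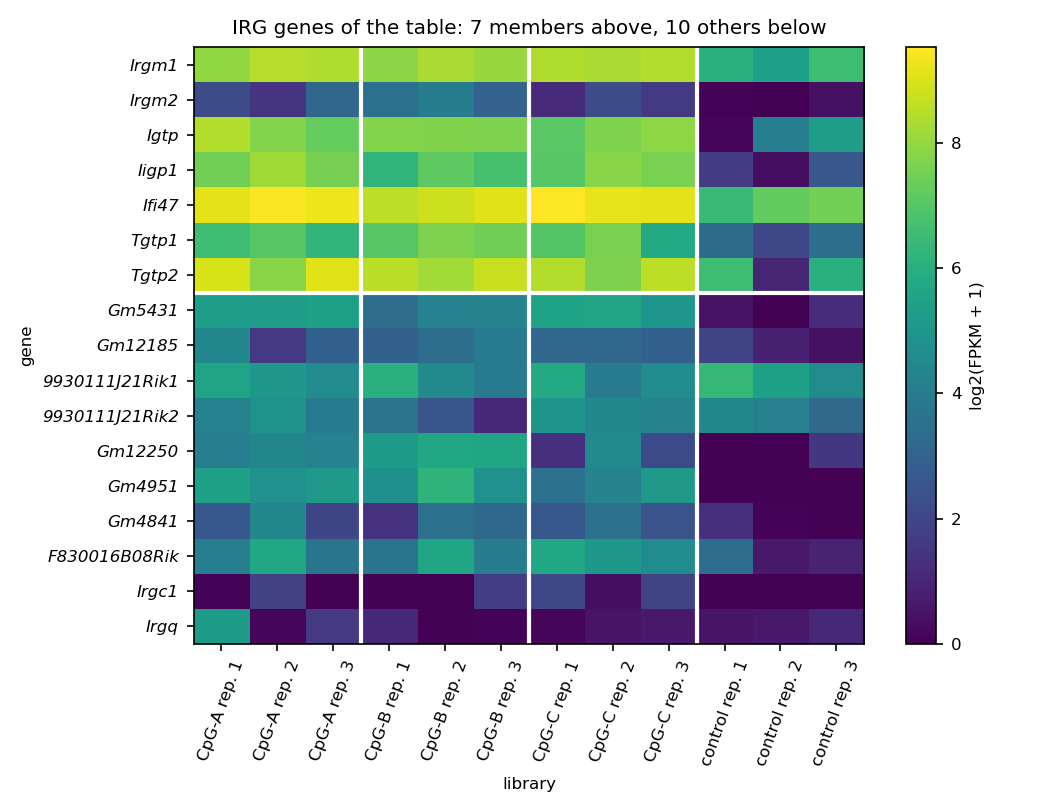
Level of the 17 IRG genes of the table as log2(FPKM + 1) in each library, the 7 members above the line and the 10 other genes below it. The members and Gm5431, Gm4951 and Gm12250 are low in the 3 control libraries on the right, while 9930111J21Rik1 is as high there as with CpG and Irgq stands out at 35.7 FPKM in CpG-A replicate 1.

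IRG genes lie in clusters, and their neighbours within 100 kb were looked at for comparison. On chromosome 11 the clusters hold 11 IRG genes, of which 6, 8 and 5 rose with CpG-A, CpG-B and CpG-C. Among the 11 other rows tested there none was called with any class, and their median differences were 0.01, -0.03 and -0.45. Those 11 include 2 loci named only by the sequencing provider, inside the span of the Tgtp2 row. Over all genes tested 1.05%, 3.26% and 1.34% were called higher, so none among 11 rows is near the share over all genes. On chromosome 18 this span takes in 3 IRG genes, Iigp1, Gm4951 and F830016B08Rik, of which 2, 2 and 3 rose with CpG-A, CpG-B and CpG-C. Another IRG gene of that chromosome, Gm4841, lies just outside the span and was not called with any class. None of the 3 other rows tested beside them was called either, again near the share over all genes, with median differences of 2.26, 3.08 and 1.69. Of these, 2 are loci named only by the sequencing provider that overlap the processed pseudogene BC023105. One of them, BGI_novel_G001766, was at 3.22, 36.1 and 17.5 FPKM in CpG-A libraries, 0.77, 46.0 and 6.7 FPKM in CpG-B libraries, 0, 11.9 and 1.41 FPKM in CpG-C libraries, while the 3 controls were listed at 0.

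Other genes of the pathway were described by lists chosen with earlier results known. Guanylate-binding proteins (GBPs) are larger GTPases that join IRG proteins at vacuoles, and 10 were tested. With CpG-A 3 of them rose (Gbp10 by 4.0, Gbp4 by 3.76 and Gbp6 by 2.87), and with CpG-C the same 3 (by 3.54, 3.46 and 2.91). With CpG-B 7 of 10 rose, led by Gbp2 (6.24), Gbp2b (5.39), Gbp3 (5.14) and Gbp7 (4.83). Over all genes tested 1.05% were called higher with CpG-A, 3.26% with CpG-B and 1.34% with CpG-C. No GBP was called between any 2 CpG classes. Gbp2 was at 48.6, 7.72 and 16.6 FPKM in CpG-A libraries, 200.1, 173 and 72.9 FPKM in CpG-B libraries, 34.5, 5.19 and 8.7 FPKM in CpG-C libraries, and 0.12, 0.06 and 4.02 FPKM in control libraries, so that its CpG-B libraries lay above all others.

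Of 16 genes listed for autophagy, for loading IRG and GBP proteins or for marking vacuoles, Ubd alone was called against control. It was higher with CpG-B (3.40, adjusted p = 0.0154). Of 13 interferon genes tested, Ifna9 (6.52) and Ifna12 (3.58) were called higher with CpG-A, Ifnb1 (8.35) and Ifna9 (5.07) with CpG-C, and Ifng (6.45, adjusted p = 0.00421) with CpG-B. Over all genes tested 1.05%, 3.26% and 1.34% were called higher with CpG-A, CpG-B and CpG-C. All CpG libraries lay above all controls for 10, 6 and 5 of the 13 in the same order, against 5.78%, 10.1% and 6.64% of all genes. Ifnb1 was at 8054, 4.55 and 229 FPKM in CpG-A libraries, 535, 119.7 and 104 FPKM in CpG-B libraries, 3405, 189 and 1074 FPKM in CpG-C libraries, and 3.23, 1.54 and 0.87 FPKM in control libraries. All CpG libraries of Ifnb1 lay above all controls, though its differences of 6.32 with CpG-A (adjusted p = 0.104) and 6.12 with CpG-B (adjusted p = 0.0600) did not pass the test. Ifng, the strongest known inducer of IRG genes, was at 135.9, 11.8 and 14.3 FPKM in CpG-A libraries, 315, 52.9 and 52.0 FPKM in CpG-B libraries, 0.15, 17.8 and 0 FPKM in CpG-C libraries, and 0.14, 0.08 and 0.1 FPKM in control libraries. The Ifng differences of 4.76 with CpG-A (adjusted p = 0.0643) and 1.33 with CpG-C (adjusted p = 0.691) did not pass the test. The mean level of Ifng and the sum of the natural killer cell markers were both highest in CpG-B cells, where Ncr1 was at 46.3 to 89.3 FPKM and Klrb1c did not pass 3.64 FPKM. Their part in the IRG levels was not tested.

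Among 11 interferon receptors and transducers none was called with any class, which is near the share over all genes. For this list and the next 2, that share was 1.05%, 3.26% and 1.34% called higher with CpG-A, CpG-B and CpG-C. Of the 11641 genes tested, 49, 289 and 61 were called lower in the same order. Of 8 transcription factors that act on such promoters, Irf7, the factor behind interferon-alpha genes, rose with CpG-A (3.27) and CpG-C (3.23), and its difference of 2.13 with CpG-B was not called (adjusted p = 0.0583). Irf8, a factor of pDC identity, fell by 2.77 with CpG-B (adjusted p = 0.00646). Of 8 feedback inhibitors, Usp18, which blocks the type I interferon receptor, rose with all classes (4.68, 4.43 and 4.56). Socs1, an inhibitor of JAK kinases, rose with CpG-A (4.83) and CpG-B (4.15) and differed by 3.65 with CpG-C (adjusted p = 0.0905), and Socs2 with CpG-B (3.54).

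Genes with the most similar pattern over the 12 libraries were sought among 9660 known genes by Pearson's r of log2(FPKM + 1), as a description only, since any gene that differs between CpG and control scores high. Isg20 and Oasl1 (both r = 0.990) were most like the mean of the 7 members, followed by Ifit1 (0.985), Usp18 (0.979), Zbp1 (0.978) and Mnda (0.978). Isg20 averaged 697 FPKM in CpG-A, 816 FPKM in CpG-B, 589.8 FPKM in CpG-C and 6.88 FPKM in control cells. For single members the closest genes were Ifi44 for Iigp1 (0.990), Iigp1 for Irgm1 (0.989), Ube2l6 for Ifi47 (0.981) and Lgals3bp for Igtp (0.974). Cd69 was closest to Tgtp2 (0.961), Zbp1 to Tgtp1 (0.958) and Atp10a to Irgm2 (0.929). Among the members themselves r ran from 0.578 to 0.989, and the highest value joined Irgm1 on chromosome 11 with Iigp1 on chromosome 18.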

How the data were processed

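The deposited gene table holds FPKM per library, rounded to 2 decimals, and the authors' log2 ratios and q-values for pairs of groups, per the file headers. Tools listed in the submitters' processing notes, with no role or order, are RSEM 1.2.8, Bowtie2 2.2.5, StringTie, HISAT and GATK, with the build mm10, and the strand setting is not given in the sources used here. The table had 21574 lines, 1 of them broken and left out. No read counts were used, so depth was estimated from the steps of low FPKM values: 23000000 to 27600000 fragments per library, with 57.2% to 76.7% of the values used within 0.1 fragments of a whole number.

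The 11641 genes that reached 1 FPKM in 3 or more libraries, all 7 members among them, were fitted as log2(FPKM + 1) in limma 3.58.1 (R 4.3.3), with 1 mean per group over all 12 libraries, a mean-variance trend (8 residual and 6.81 prior degrees of freedom) and Benjamini-Hochberg adjustment over all genes tested. The fit was checked on simulated data with independent normal noise. Those data held no likeness between same-numbered libraries and no less alike replicate, so the check does not cover either. Same-numbered libraries deviated together in every pair of groups (correlations 0.061 to 0.170 in 18 pairs, against at most 0.029 in the 36 others). For CpG-A and control all 3 pairs passed a threshold of 0.1 (0.106 to 0.133), so the number was taken to pair them there. The main fit left this pairing out, and a fit with the number as a block was run as an alternative. All 7 members, all other IRG genes, neighbours within 100 kb, up to 4 called genes per list and comparison, and the most similar genes are named. BGI_novel_G001766, Gbp2, Isg20, Ncr1 and the markers with values were singled out after their values were seen. The members and lists were chosen with earlier results of these data known. Summing Igtp with Irgm2 was an alternative added after seeing the data. Python 3.11.15 with pandas 2.3.3 and matplotlib 3.10.9 made the descriptions and figures.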

Additional observations from a re-analysis of the deposited data

How the results depend on the processing

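No member's difference against control changed sign under any alternative tried. Fitted on only the 6 libraries of the groups compared, 1 member was called with CpG-A and 3 with CpG-C, while the genes called higher over the whole table fell to 17 and 64, against 122 and 156 with all 12 libraries. Over the other alternatives the number called was 4 to 6 with CpG-A, 5 to 7 with CpG-B and 4 to 6 with CpG-C, and leaving out 1 library gave the same ranges. With a replicate block 6, 7 and 6 members were called. For CpG-B and CpG-C against control not every same-numbered pair's correlation passed the threshold of 0.1 (0.087 to 0.136 and 0.082 to 0.153). Pairing was therefore not taken as given there, though this rests on the threshold alone. Over all pairs of groups the 18 same-numbered correlations (0.061 to 0.170) lay above all 36 others (at most 0.029). As a hint from the data, each of the 12 libraries was closest to its own number in every other group. With the block Tgtp2 was called with CpG-C (adjusted p = 0.0291).

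Between classes none was called under any alternative, and small differences changed sign. For CpG-A minus CpG-B, Igtp was -0.037 with median-of-ratios scaling, -0.034 with upper quartile scaling, -0.14 with library weights and -0.17 without the 4 libraries numbered 1 (-0.19 to 0.37 leaving out 1 library). Tgtp2 was -0.016 and -0.014 with these scalings, -0.021 without the libraries numbered 1 and -0.076 summed with Tgtp1 (-0.094 to 0.51). For CpG-A minus CpG-C, Igtp was -0.17 with weights and -0.27 without the libraries numbered 1 (-0.028 to 0.54), Irgm1 0.057 without them (-0.18 to 0.050), Ifi47 -0.020 with upper quartile scaling (-0.074 to 0.13) and Tgtp1 0.021 with weights and 0.23 summed with Tgtp2 (-0.67 to 0.23). For CpG-B minus CpG-C, Igtp was -0.037 with weights and -0.094 without the libraries numbered 1 (-0.075 to 0.35), and Tgtp2 ran from -0.0089 to 0.46. The cause was not tested.

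Median-of-ratios scaling moved the median of all genes to -0.11 with CpG-A, -0.00 with CpG-B and -0.08 with CpG-C. It turned the split of all calls from 380 higher and 289 lower to 471 and 206 with CpG-B. Upper quartile scaling turned it from 156 and 61 to 189 and 40 with CpG-C. FPKM values carry no counts, so no counting interval is given, and Irgm2 in control cells rests on few fragments.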
